A study of Xenopus laevis with 12 samples.

Results

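Retinoic acid genes were examined in RNA of stage 15 *Xenopus laevis* embryos, the early neurula of the African clawed frog. Probe sets were taken whose single gene symbol in the probe annotation, without its L or S ending, was *aldh1a* with a number, *cyp26*, *rdh10*, *dhrs3*, *crabp* or one of the receptors *rara*, *rarb*, *rarg*, *rxra*, *rxrb* and *rxrg*. The rule found 18 probe sets of 12 genes, among 6505 genes with a single symbol. *X. laevis* is allotetraploid and carries many genes as an L and an S copy, and these 18 probe sets covered 16 of the 29 gene copies that the rule finds in the RefSeq gene table of assembly v10.1. Both copies of *aldh1a3*, a further gene of the synthesis family, and of *cyp26b1* and *rarb* had no such probe set. The other copies without one included the S copy of *aldh1a2*, the L copy of *cyp26c1* and *crabp1*, which is listed as an S copy only. None of these is analysed here, so synthesis and breakdown were read in part only.

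Each of 4 groups was hybridised to 3 Affymetrix *X. laevis* arrays, 12 in all. The eye field (EF, named eye primordia in the labels) was cut from the anterior neural plate together with the mesendoderm beneath it. The posterior neural plate (PNP) came from the hind end of the plate, the lateral endoderm (LE) from the flank, midway along the axis between the other regions, and the fourth group was the whole embryo. Pieces were pooled for each array, no treatment is given in the labels, and the design text calls the 3 samples of a tissue biological replicates, which the paper took on different days from different females. All levels are log2 of the deposited signal intensity, all differences are in log2 units, and a probe set was called higher or lower at a limma adjusted p under 0.05 over 15491 probe sets.

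The highest *Bacillus subtilis* control probe set of an array, at a log2 level of 2.104 to 2.77, served as the ceiling of its background. LE replicate 3 and PNP replicate 3 had the highest level of the BioB hybridisation controls, of *Escherichia coli*, at 8.99 and 8.82 on the log2 scale, where the other arrays had 7.58 to 8.52. All 6 eye field markers were called higher in EF than in whole embryos, and 5 of 6 markers of the posterior plate and tailbud were higher in PNP. In LE, 1 of 7 endodermal markers was called higher than in whole embryos (*gata5*, by 1.13), and *hhex* was not above the ceiling on any LE array. The summed log2 level of the endodermal markers was 8.84 to 9.11 in LE and that of the epidermal markers was 12.24 to 12.501, with 6 of 7 measured endodermal genes and all 6 epidermal genes above the ceiling on at least 1 LE array.

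Retinoic acid is a small lipid signal made from vitamin A in some embryonic tissues and destroyed in others, and the balance of making and breaking sets how much of it a cell sees. Rdh10 oxidises retinol to retinal, Dhrs3 turns retinal back into retinol, and the retinal dehydrogenases of the Aldh1a family, chiefly Aldh1a2 in the early embryo, oxidise retinal to retinoic acid. Cytochromes of the Cyp26 family break retinoic acid down, Crabp proteins carry it within the cell, and pairs of a retinoic acid receptor (RAR) and a retinoid X receptor (RXR) bind it on DNA. In vertebrate embryos the signal is known for patterning the hindbrain and trunk, while the forebrain and the growing tail end are kept low in it.

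*aldh1a2* and rdh10.L, of the synthesis steps, had their highest levels in LE, *cyp26c1* in EF, and *cyp26a1* and *rarg* in PNP. Of the 18 probe sets, 11 were called in at least 1 of the 6 comparisons between groups, and these 11 belonged to 8 genes. The share of all probe sets called in at least 1 of the 6 was not worked out, so this count is a description only. On all 12 arrays 9 of the 18 lay above the background ceiling, and 2 lay above it on none. In a dissected piece, fewer cells of a type and less RNA per cell cannot be told apart.

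*aldh1a2*, the gene of an enzyme that makes retinoic acid, was highest in LE and lowest in EF. The first of its probe sets, both of the L copy, had log2 levels of 8.57, 8.59 and 8.42 in LE and of 6.19, 6.21 and 6.54 in whole embryos. In PNP the levels were 5.40, 5.17 and 4.26, and in EF 3.40, 4.11 and 3.26. The 4 groups did not overlap, with LE highest, whole embryos next, then PNP and EF lowest. LE exceeded whole embryos by 2.21 ± 0.28 (SE, n = 3 arrays a group), a 4.64-fold difference with a limma adjusted p of 0.000394. PNP lay below whole embryos by 2.58-fold (adjusted p = 0.00376 by limma) and EF by 6.61-fold (adjusted p = 2.53e-05). The whole span from EF to LE was 30.7-fold (adjusted p = 1.57e-07), and EF and PNP also differed from each other, by 2.56-fold (adjusted p = 0.00344). By the methods' t-test the calls of PNP against whole embryos and of EF against PNP were lost (adjusted p = 0.118 and 0.153).

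The second *aldh1a2* probe set was likewise highest in LE. It had log2 levels of 5.68, 5.66 and 5.43 in LE, against 2.75, 2.76 and 3.12 in whole embryos, 3.06, 2.32 and 2.61 in PNP and 2.30, 2.55 and 2.55 in EF. All LE arrays stood above all others, by 2.71 ± 0.18 (SE) over whole embryos, which is 6.56-fold with an adjusted p of 3.34e-06. The remaining groups lay close to the background, with 1 of 3 PNP arrays, 2 of 3 EF arrays and all whole embryo arrays above the ceiling. This probe set was not called between EF and whole embryos (difference -0.41, 95% interval -0.81 to -0.0068, limma adjusted p = 0.148) or between PNP and whole embryos (difference -0.21, interval -0.61 to 0.19), where the first one was. Between EF and PNP it was not called either (difference -0.20, limma adjusted p = 0.519). Over the 12 arrays the Pearson correlation of the pair was 0.89, given as a description of points that share their arrays.

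*rdh10*, whose product supplies retinal to Aldh1a2, was read for both gene copies. The L copy (rdh10.L) had log2 levels of 8.52, 8.51 and 8.28 in LE, 7.71, 7.55 and 7.91 in whole embryos, 6.65, 6.71 and 6.13 in EF and 5.35, 5.17 and 4.85 in PNP. The groups did not overlap, and all neighbours in this order were called different. LE stood 1.64-fold over whole embryos (0.72 ± 0.18, SE, limma adjusted p = 0.0311). EF lay 2.34-fold under whole embryos (adjusted p = 0.000472) and PNP 6.06-fold (adjusted p = 5.80e-07). rdh10.L and *aldh1a2* thus shared their highest and second highest groups and differed in the lowest, which was PNP for rdh10.L and EF for *aldh1a2*. Between EF and PNP, rdh10.L was 2.59-fold higher in EF (adjusted p = 0.000138), where *aldh1a2* was lower. The call of rdh10.L between LE and whole embryos was lost when any 1 LE array, whole embryo replicate 1 or whole embryo replicate 2 was left out, with differences of 0.63 to 0.81 over all arrays left out in turn.

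The S copy of *rdh10* (rdh10.S) lay near the background. Its log2 levels were 3.58, 3.50 and 3.01 in LE, 3.55, 2.60 and 3.97 in whole embryos, 2.56, 2.88 and 2.68 in EF and 2.76, 2.24 and 2.24 in PNP. LE stood above PNP on every array, whole embryos spread from 2.60 to 3.97, and 1 of 3 PNP arrays exceeded the ceiling. PNP was called lower than LE (by 0.95, limma adjusted p = 0.0320) and lower than whole embryos (by 0.96, adjusted p = 0.0355), and the arrays of PNP and whole embryos overlapped. Both calls were lost without PNP replicate 2 or PNP replicate 3, at adjusted p-values from limma of 0.106 and 0.0944 against whole embryos. Against whole embryos the call was also lost after median centring (adjusted p = 0.0560) and without whole embryo replicate 1 or 3, and against LE without LE replicate 1 or 2.

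*dhrs3*, which turns retinal back to retinol and is itself raised by retinoic acid in several vertebrates, did not pass the test in any comparison. Its levels (dhrs3.L) were 5.64, 7.33 and 6.29 in EF, 7.44, 7.34 and 7.06 in PNP, 7.06, 6.69 and 6.91 in LE and 7.23, 6.83 and 7.64 in whole embryos. EF replicate 2 lay among the arrays of the other groups, while EF replicates 1 and 3 lay below all of them. The EF mean was under that of whole embryos by 0.81 ± 0.34 (SE, limma adjusted p = 0.122) and under that of PNP by 0.86 ± 0.34 (adjusted p = 0.0902). Without EF replicate 2 these differences were -1.27 (adjusted p = 0.00552) and -1.32 (adjusted p = 0.00321) and passed the test, as did that from LE, at -0.93 (adjusted p = 0.0222). EF replicate 2 also had more of the posterior plate markers than the other EF arrays, with a summed log2 level of 6.15 against 5.27 and 5.43, and less of the notochord markers, at 5.83 against 7.06 and 7.17. It was the highest EF array also for markers of paraxial mesoderm and muscle, at 6.79 against 6.18 and 6.04. The same held for the marker lists of endoderm, epidermis, cranial placodes and hindbrain. The lead was small for epidermis (9.18 against 9.09 in EF replicate 3) and cranial placodes (9.17 against 9.12 in EF replicate 1). For the eye field list and the list of lateral plate, kidney and blood, EF replicate 1 was highest and EF replicate 2 lay between the others. The part of these marker levels in the *dhrs3* values was not tested.

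The 2 probe sets of *aldh1a1*, another retinal dehydrogenase gene, stayed at the background. aldh1a1.L read 1.96 to 2.37 and exceeded the ceiling on 3 of 12 arrays, and aldh1a1.S read 1.83 to 2.203 and exceeded it on none. Neither was called in any comparison, and no order between groups can be read at such levels.

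**Figure D1:**
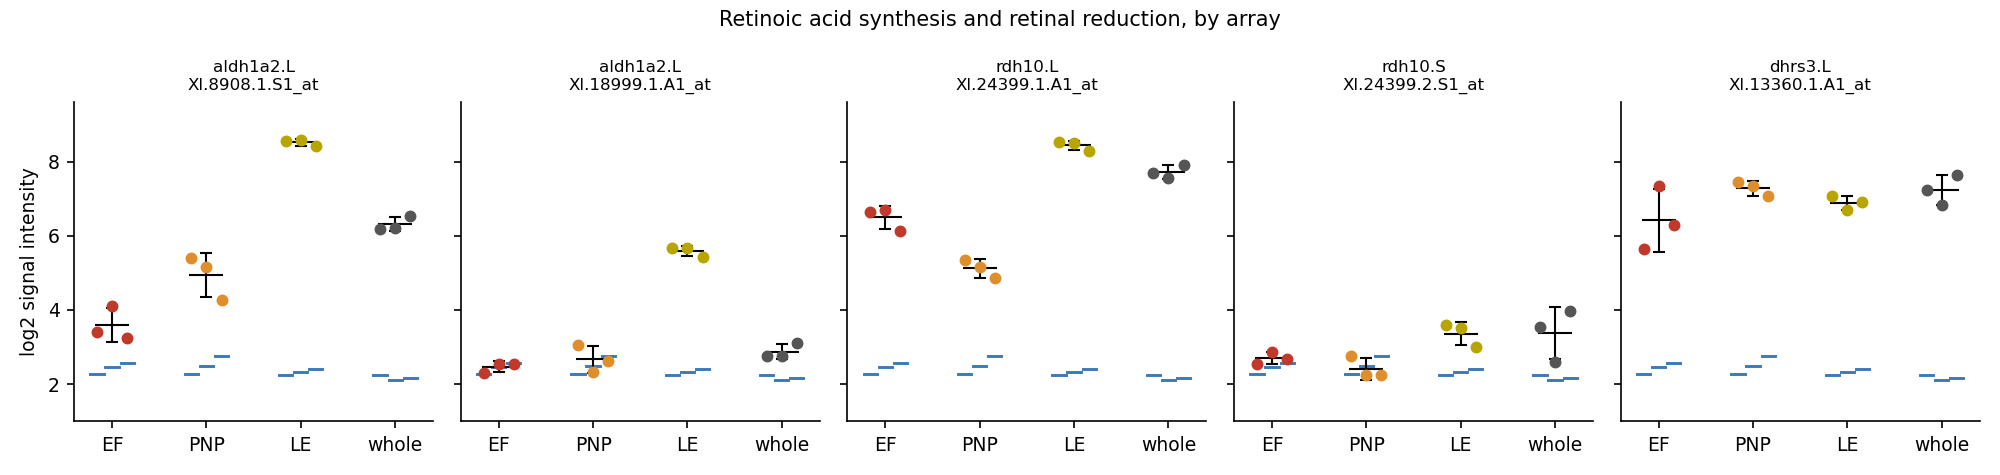
Log2 signal intensity of 5 probe sets of *aldh1a2*, *rdh10* and *dhrs3* in EF, PNP, LE and whole embryos. Each point is an array, black bars give the mean ± SD of 3 arrays, and blue ticks mark the background ceiling of each array. The LE arrays stand highest for *aldh1a2* (8.42 to 8.59 for the first probe set) and for rdh10.L, and EF replicate 2 stands apart from the other EF arrays for *dhrs3*.

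A few markers of endoderm, lateral plate and kidney were also higher in LE. *gata5* and *foxf1*, of endoderm and lateral plate, stood higher in LE by 1.13 and 1.23 over whole embryos, and *lhx1*, of the early kidney, by 1.25 (limma adjusted p = 0.00124, 0.000564 and 0.0131). *gata5* was the only 1 of 7 endodermal markers called, and the other 6 were not. *pax8*, listed with *lhx1*, was not called either (0.19, limma adjusted p = 0.340). Of 11 lateral plate, kidney and blood markers, 2 were called higher in LE and 1 lower (*lmo2*, by 2.67). *gata1* and *tal1*, listed as blood markers, did not exceed the ceiling on any LE or whole embryo array. The summed log2 level of this list was 7.72 to 8.02 in LE, 7.50 to 7.73 in whole embryos, 6.32 to 6.76 in PNP and 6.16 to 6.25 in EF. The epidermal list summed to 12.24 to 12.501 in LE, 12.1 to 12.3 in whole embryos, 8.77 to 9.18 in EF and 5.29 to 5.67 in PNP. The part of either tissue in the *aldh1a2* and *rdh10* levels was not tested.

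*cyp26c1*, which encodes a retinoic acid hydroxylase, ranged over 6.11 log2 units. Its levels (cyp26c1.S) were 7.43, 8.76 and 7.87 in EF and 7.12, 6.99 and 6.63 in whole embryos. In LE they were 3.89, 2.79 and 3.10, and in PNP 2.65, 2.69 and 2.98. EF arrays were highest and did not overlap with whole embryos, and the PNP and LE arrays overlapped just above the background. EF exceeded PNP by 5.24 ± 0.33 (SE), a 37.9-fold difference with a limma adjusted p of 2.51e-07, and exceeded LE by 27.1-fold (adjusted p = 6.23e-07). Whole embryos themselves were 17.6-fold over PNP and 12.6-fold over LE (adjusted p = 1.63e-06 and 2.76e-05). PNP and LE were not told apart (difference -0.48, 95% interval -1.19 to 0.23, adjusted p = 0.323).

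The step from whole embryos to EF was small beside these. EF exceeded whole embryos by 1.11 ± 0.33 (SE), 2.16-fold, with a limma adjusted p of 0.0317 and a 95% interval of 0.40 to 1.82. EF replicate 2, the highest array, was also the one that stood apart for *dhrs3* and in some of its marker levels. The part of its make-up in the *cyp26c1* values was not tested. Without it the difference was 0.74 (limma adjusted p = 0.113). The difference missed the threshold also without EF replicate 3 (1.18, adjusted p = 0.0575) or any 1 whole embryo array (0.97 to 1.21, adjusted p = 0.0503 to 0.0972). With only EF and whole embryos in the fit the adjusted p was 0.0634.

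*cyp26a1*, the other breakdown gene measured, was read for both copies, and both peaked in PNP. The L copy (cyp26a1.L) had log2 levels of 6.53, 6.47 and 7.03 in PNP, 4.98, 5.02 and 5.16 in EF, 4.98, 4.93 and 5.13 in LE and 4.67, 5.13 and 5.32 in whole embryos. PNP stood clear of all others, which lay on top of each other. The PNP excess was 3.12-fold over whole embryos (1.64 ± 0.18, SE, limma adjusted p = 3.73e-05), 3.09-fold over EF (adjusted p = 3.90e-05) and 3.18-fold over LE (adjusted p = 2.37e-05). EF and whole embryos differed by 0.013 (95% interval -0.39 to 0.41) and LE and whole embryos by -0.026 (interval -0.43 to 0.38, and above 0 after quantile normalization or median centring).

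The S copy (cyp26a1.S) had log2 levels of 6.20, 6.25 and 6.78 in PNP, 6.13, 5.72 and 5.77 in whole embryos, 5.22, 5.68 and 5.38 in LE and 5.01, 5.61 and 5.32 in EF. PNP was again highest with no overlap, but whole embryos lay closer to it than for the L copy. PNP exceeded EF by 2.14-fold (limma adjusted p = 0.00189) and LE by 1.98-fold (adjusted p = 0.00345). By the methods' t-test both calls were lost (adjusted p = 0.0868 and 0.0695). Over whole embryos the difference of 0.54 ± 0.21 (SE) did not pass the test (adjusted p = 0.0800), and after quantile normalization or median centring it did (0.69 in both, adjusted p = 0.0397 and 0.0223). In the RefSeq gene table *cyp26a1* and *cyp26c1* are next to each other, with 0 genes between them, on both the L and the S chromosome. The pair measured on the S chromosome had opposite orders in the neural regions, as cyp26c1.S was higher in EF than in PNP by 37.9-fold and cyp26a1.S lower by 2.14-fold, the latter not called by the methods' t-test.

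**Figure D2:**
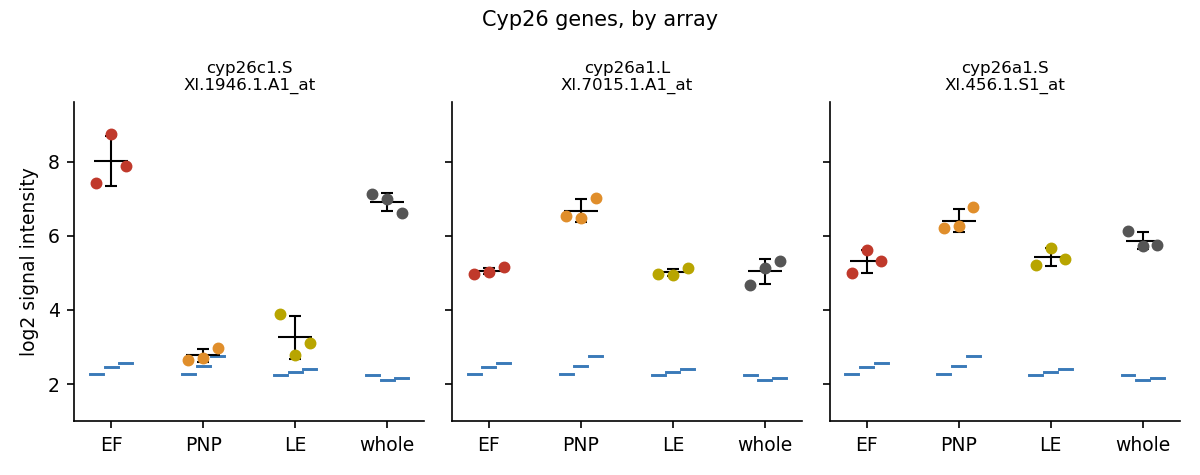
Log2 signal intensity of the 3 *cyp26* probe sets in EF, PNP, LE and whole embryos, drawn as points for arrays, black bars for the mean ± SD of 3 arrays and blue ticks for each array's background ceiling. *cyp26c1* is high in EF (7.43 to 8.76) and whole embryos and near the ceiling in PNP and LE, and both *cyp26a1* copies are highest in PNP.

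*rarg*, a retinoic acid receptor gene, was above the ceiling on every array and highest in PNP. Its log2 levels (rarg.S) were 7.77, 7.43 and 8.32 in PNP, 7.25, 7.12 and 6.93 in whole embryos, 6.34, 6.71 and 6.75 in EF and 5.82, 6.11 and 6.09 in LE. The groups did not overlap. PNP exceeded LE by 3.58-fold (1.84 ± 0.21, SE, limma adjusted p = 2.76e-05) and EF by 2.37-fold (adjusted p = 0.000827), and LE lay 2.14-fold under whole embryos (adjusted p = 0.00659). PNP exceeded whole embryos by 1.67-fold (adjusted p = 0.0227), and this call was lost without PNP replicate 3, whole embryo replicate 2 or whole embryo replicate 3, with differences of 0.50, 0.75 and 0.66. The methods' t-test lost this call too (adjusted p = 0.191). It also lost those of EF against PNP and of LE against whole embryos (adjusted p = 0.0877 and 0.0727). EF did not pass the test against whole embryos (difference -0.50, 95% interval -0.95 to -0.052, adjusted p = 0.115, but 0.0474 without PNP replicate 3) or LE (0.59, interval 0.14 to 1.05, adjusted p = 0.0550). The ending of the probe set's name marks one that can match several transcripts of a gene.

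*rara*, another RAR gene, was dim but also highest in PNP. rara.L had log2 levels of 2.88, 2.73 and 2.97 in PNP, 2.14, 2.54 and 2.36 in whole embryos, 2.32, 2.28 and 2.16 in LE and 2.14, 1.96 and 1.93 in EF. PNP arrays stood above all others and were the only group with all 3 arrays over the ceiling, and no EF array exceeded it. PNP was therefore at least 1.35-fold higher than EF, counted from the ceiling in EF (limma adjusted p = 0.000579), and it was also called higher than LE (adjusted p = 0.00507), where 1 of 3 arrays exceeded the ceiling, a call lost with PNP replicate 3 and LE replicate 3 both left out (adjusted p = 0.0586). The 1.43-fold excess over whole embryos (adjusted p = 0.0164) was lost without PNP replicate 3 or whole embryo replicate 1, at adjusted p-values of 0.0519 and 0.0650.

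The RXR genes, whose products pair with RARs and other nuclear receptors, were near the background. One *rxra* probe set (rxra.L) had log2 levels of 2.58, 2.35 and 2.92 in PNP and 2.22, 2.03 and 2.05 in whole embryos, with 2.25, 2.40 and 2.66 in EF and 2.28, 2.197 and 2.12 in LE. PNP lay over whole embryos without overlap, by 0.52 (limma adjusted p = 0.0351). The ceiling was exceeded on 2 of 3 PNP arrays and on no whole embryo array. The call was lost without PNP replicate 1 or 3 or whole embryo replicate 2 or 3, with differences of 0.37 to 0.54 and adjusted p-values of 0.0671 to 0.116, and after quantile normalization (adjusted p = 0.0787). The other *rxra* probe set was not called in any comparison and read 2.01 to 3.20, its highest value being LE replicate 3. rxrb.S exceeded the ceiling on all 12 arrays at 2.60 to 3.76 and was not called in any comparison. rxrb.L read 1.77 to 2.30 and exceeded the ceiling on none, and rxrg.L read 2.01 to 2.71 and exceeded it on 8. A probe set annotated with both *rxrb* copies fell outside the single-symbol rule and read 2.12 to 2.48.

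*crabp2*, a carrier of retinoic acid in the cytoplasm, lay not far above the ceiling in all groups. crabp2.L had log2 levels of 3.16, 3.30 and 3.36 in EF, 2.79, 3.48 and 3.16 in PNP, 3.16, 2.88 and 3.55 in whole embryos and 2.49, 2.69 and 2.71 in LE. LE arrays were the lowest and overlapped with no other group, and the others overlapped. EF exceeded LE by 1.56-fold (0.65 ± 0.19, SE, limma adjusted p = 0.0291), the 1 call of this probe set, which was lost after median centring (adjusted p = 0.0583) and without EF replicate 2 or 3 or any 1 LE array. LE lay below whole embryos by 0.57 (adjusted p = 0.0940) and below PNP by 0.51 (adjusted p = 0.0741).

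**Figure D3:**
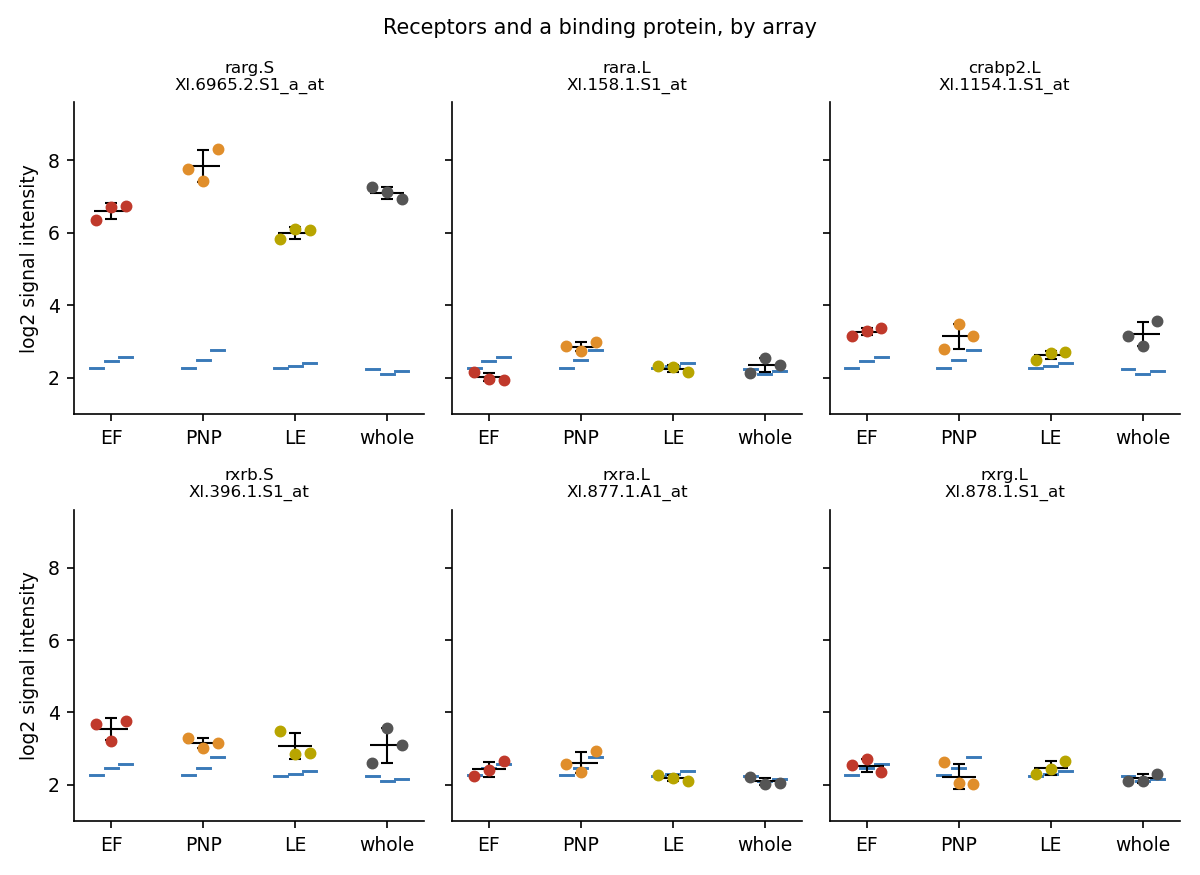
Log2 signal intensity of 6 probe sets of receptors and *crabp2* in EF, PNP, LE and whole embryos, with points for arrays, black bars for the mean ± SD of 3 arrays and blue ticks for each array's background ceiling. *rarg* lies between 5.82 and 8.32, and the RXR, *rara* and *crabp2* points lie near the ceiling, where *rara* in PNP stands above the other groups.

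The PNP pieces also held much RNA of mesoderm. Markers of paraxial mesoderm and muscle summed to a log2 level of 10.8 to 10.9 in PNP, 9.69 to 10.1 in whole embryos, 6.26 to 6.79 in LE and 6.04 to 6.79 in EF, and 4 of the 6 measured were called higher in PNP than in whole embryos and 1 lower. The 3 notochord markers were all called higher there and summed to 9.32 to 9.49 in PNP, 5.95 to 6.27 in whole embryos, 5.83 to 7.17 in EF and 4.45 to 4.89 in LE. Whether *cyp26a1*, *rarg* and *rara* were read from plate or from mesoderm was not tested. PNP replicate 3 had the highest levels of *cyp26a1*, *rarg* and *rara* and the lowest of the first *aldh1a2* probe set in its group, along with the highest background ceiling, 2.77. Without it the PNP excess of cyp26a1.L over whole embryos was 1.46 and remained called.

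Against whole embryos, 1 of the 18 probe sets was called higher in EF and 2 lower, where 8.83% and 10.6% of all probe sets tested were called higher and lower. In PNP 4 were higher and 4 lower, against 10.2% and 12.1% of all. In LE 3 were higher and 2 lower, against 3.23% and 5.40% of all. All 3 comparisons share the whole embryo arrays. Between regions, EF had 2 higher and 5 lower members against PNP (13.8% and 9.73% of all) and 2 higher and 3 lower against LE (14.1% and 10.7%), and PNP had 4 higher and 4 lower against LE (13.0% and 12.6%). The EF counts against whole embryos were near the share of all probe sets. The 8 PNP calls fell to 4 without PNP replicate 3 and to 3 by the methods' t-test. The 5 LE calls, of which *aldh1a2* gave 2 of the 3 rises, fell to 2 by that test. The shares of all probe sets under those settings were not worked out. The lower counts therefore cannot be set against the shares above, and all of these counts are a description without a test. For the 18 members the median difference was -0.066 (EF), 0.063 (PNP) and -0.019 (LE) from whole embryos, and for all probe sets tested 0.10, 0.072 and 0.037. The split of all calls depended on scaling. With the deposited scale, rises made up 45.6% of the EF calls against whole embryos, 45.9% of the PNP calls and 37.4% of the LE calls. Median centring of the arrays brought these shares to 58.1%, 68.7% and 60.6%, and the median of all probe sets to 0.18, 0.22 and 0.14.

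**Figure D4:**
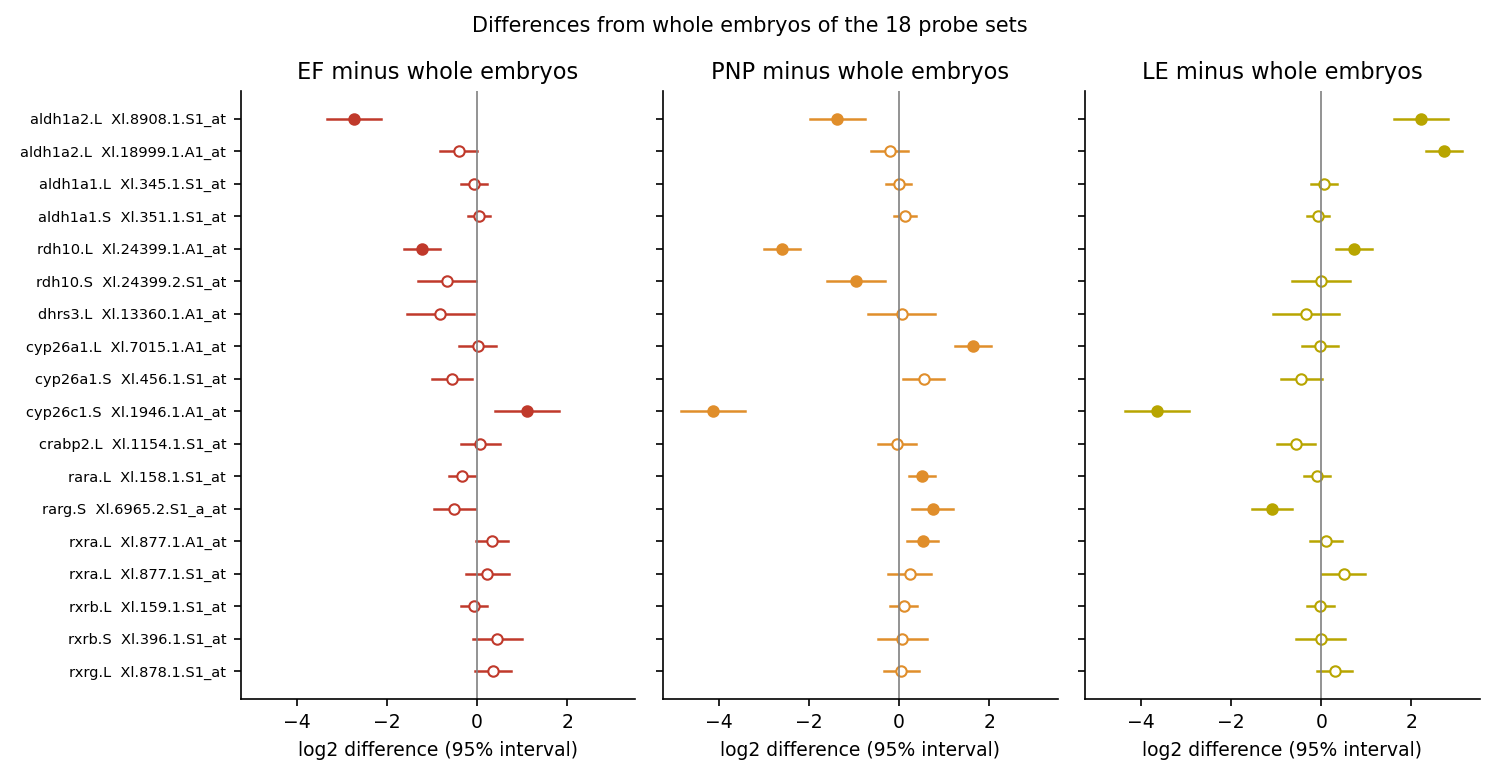
Log2 difference from whole embryos of each of the 18 probe sets in EF, PNP and LE, with its 95% interval. Filled points passed a limma adjusted p of 0.05 and open points did not. The first *aldh1a2* probe set and rdh10.L lie below 0 in EF and PNP and above it in LE, while *cyp26c1* lies above 0 only in EF (1.11).

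Genes whose levels ran most like those of the members were sought among 1225 genes outside them that exceeded the ceiling on at least 3 arrays and ranged over at least 2 log2 units. By Pearson's r over the 12 arrays, a description without a test, *aldh1a2* was most like *mpc1* (0.97), *gata5* (0.96), *ubp1* (0.96), *fut1* (0.96) and *caskin2* (0.95). *gata5*, a transcription factor gene of endoderm and heart precursors, had group means of 5.28 in LE, 4.15 in whole embryos, 2.73 in PNP and 2.50 in EF, with PNP and EF not called different (limma adjusted p = 0.395). *cyp26c1* was most like *irx1* (0.97), *fzd8* (0.97), *otx2* (0.96), *crx* (0.96) and *ras-dva1* (0.95). *otx2*, a homeobox gene of the forebrain and midbrain, had means of 8.85 in EF, 7.50 in whole embryos, 3.30 in LE and 2.87 in PNP. Of the members, cyp26a1.S and rarg.S correlated at 0.89, cyp26a1.L and rara.L at 0.87 and rdh10.L and the first *aldh1a2* probe set at 0.76. rara.L exceeded the ceiling on 6 of 12 arrays. rdh10.L ran against cyp26a1.L (-0.82) and rarg.S (-0.79). All of these points share their arrays and their 4 group means.

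Other genes of the pathway were read from 3 lists, with counts that are a description without a test. Against whole embryos, 8.83% of all probe sets tested were called higher and 10.6% lower in EF. The shares were 10.2% and 12.1% in PNP and 3.23% and 5.40% in LE. Of 33 genes of retinol transport, storage and oxidation 13 were measured, and against whole embryos 1 was called higher in EF (*adh5*, by 0.39), 1 higher (*rlbp1*, above the ceiling on 1 of 3 PNP arrays and on no whole embryo array) and 1 lower in PNP, and none in LE. The gene that was lower in PNP was *rpe65*, the retinoid isomerase of the later pigment epithelium, whose mean log2 level was 2.81 in PNP, 6.61 in EF, 6.18 in LE and 6.68 in whole embryos. It lay 3.87 ± 0.24 (SE) below whole embryos in PNP (limma adjusted p = 2.13e-07), and PNP was likewise the lowest group for rdh10.L. Some of the 13 retinol genes did not exceed the ceiling on any array. Of 15 receptor cofactor genes 8 were measured, and *tgif1*, a homeobox corepressor, and *carm1*, a coactivating methyltransferase, rose in PNP over whole embryos, by 0.85 and 0.39 (adjusted p = 0.00122 and 0.0476). None of the 8 was called in EF or LE against whole embryos, though 1 was in EF after quantile normalization, median centring or averaging the probe sets of a gene. *ncor1*, a corepressor, and *crebbp*, a coactivating acetyltransferase, were higher in EF than in LE, by 0.57 and 0.68 (adjusted p = 0.0388 and 0.0339). Of the 8, 3 were called higher in PNP than in LE, among them *crebbp*, by 0.63 (limma adjusted p = 0.0466). Among all probe sets tested, 14.1% were called higher in EF than in LE and 13.0% higher in PNP than in LE. The median difference of the cofactors was 0.32 in both comparisons, against 0.033 and 0.021 for all probe sets. *crebbp* was not called between EF and PNP, with means of 4.99 and 4.94.

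Of 34 genes known to respond to retinoic acid in vertebrate embryos, 21 were measured, and calls went both ways in every region. The list sets no expected direction for a gene, and some of the 21 lay mostly under the ceiling. The mixed signs therefore cannot tell whether the genes responded together. In EF 2 were called higher and 8 lower than in whole embryos, in PNP 6 higher and 4 lower, and in LE 5 higher and 2 lower, with medians of -0.13, 0.35 and 0.33. Among all probe sets tested, 8.83% were called higher and 10.6% lower in EF. These shares were 10.2% and 12.1% in PNP and 3.23% and 5.40% in LE. The medians of all probe sets were 0.10, 0.072 and 0.037. *cdx1* and *cdx4*, caudal homeobox genes of the posterior body, had mean log2 levels of 6.56 and 4.53 in whole embryos and did not exceed the ceiling on any EF array (limma adjusted p = 5.55e-08 and 0.000192). *hoxa3* was lower in EF by 3.09 (adjusted p = 4.56e-05), and the orphan nuclear receptor genes *nr2f1* and *nr2f2* were higher there by 2.70 and 2.51 (adjusted p = 9.95e-05 and 0.00240). Of the 8 Hox and Cdx genes measured, which specify position along the trunk and hindbrain, 5 were called lower in EF and *hoxc5*, *hoxd3* and *hoxb5* were not called. *hoxc5*, *hoxd3* and *hoxb5* did not exceed the ceiling on any EF array, and *hoxb5* did not exceed it on any array of the other groups either.

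In PNP, *cdx4* was higher than in whole embryos by 2.03, *hoxc5* by 1.52 and *hoxb4* by 1.47, while *meis3* and *tbx1* were lower by 2.35 and 1.22 and *gbx2.2* by 0.92 (limma adjusted p = 0.000643, 0.00220, 0.000238, 0.000137, 0.0111 and 0.0192). In LE, the *gbx2* copies *gbx2.1* and *gbx2.2*, homeobox genes of the hindbrain border and early ectoderm, were higher by 2.27 and 1.51, and *lhx1* by 1.25, while *cdx4* and *cdx1* were lower by 1.26 and 1.19 (adjusted p = 9.80e-06, 0.00275, 0.0131, 0.0310 and 0.00610). *cdx1* was also higher in PNP, by 0.89 (adjusted p = 0.0123), so both *cdx* genes were called higher in PNP and lower in LE. Of 4 measured hindbrain markers 3 were called higher in LE (both *gbx2* genes and *hoxa2*), the other, *egr2*, did not exceed the ceiling on any LE array, and the list's summed log2 level was 7.08 to 7.54 in LE and 5.65 to 6.01 in whole embryos. No measure of retinoic acid itself was part of these data.

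**Figure D5:**
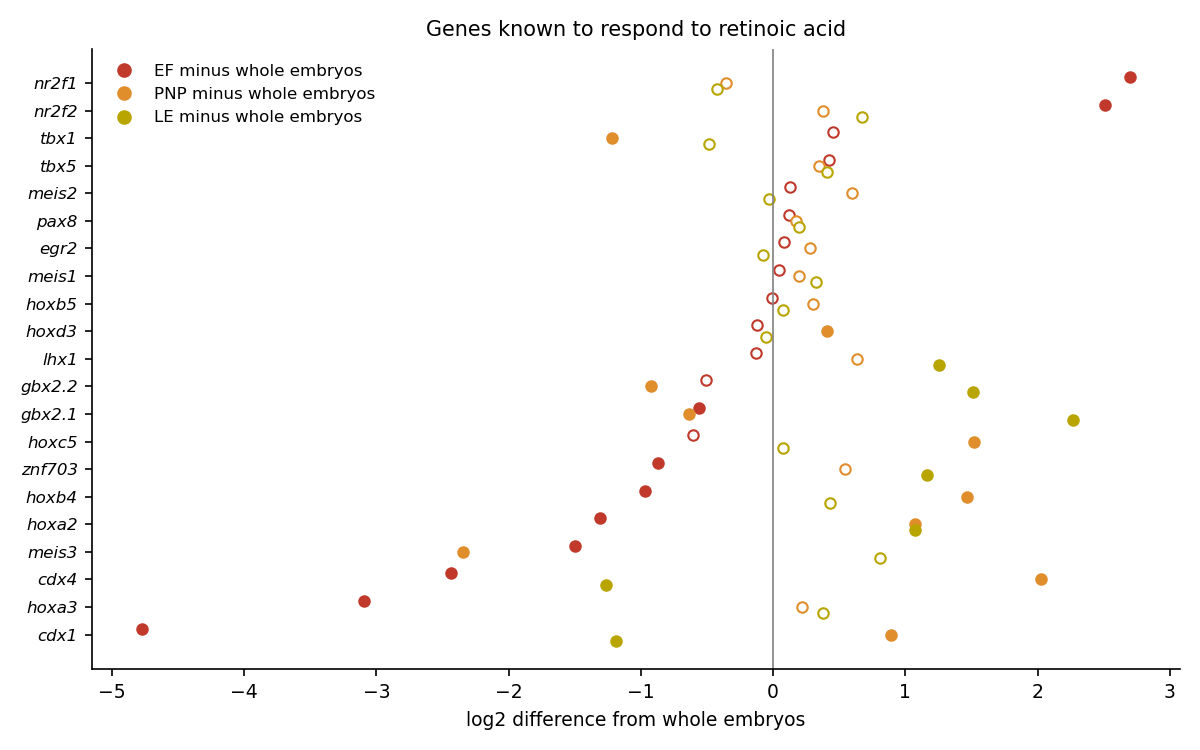
Log2 difference from whole embryos of the 21 measured genes known to respond to retinoic acid, in EF, PNP and LE. Filled points passed a limma adjusted p of 0.05 and open points did not, and the points lie on both sides of 0 in every region, from *cdx1* in EF to *nr2f1* in EF (2.70).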

How the data were processed

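RNA of 12 samples, 3 for each of the 3 regions and for whole embryos, was measured on Affymetrix *X. laevis* arrays. The authors deposited linear signal intensities, made by RMA according to their methods, in 1 table with 0 columns of other samples. Their floor is low for RMA (lowest intensity 2.80), so levels and folds near the background depend on that step, and raw scans were not used. Values were put on the log2 scale from the deposited intensities, with neither offset nor scaling. Of 15611 probe sets 120 controls were left out. Among the 15491 tested, 9304 had 1 symbol, 195 several and 5992 none. All 18 members matched the RefSeq table by identifier, which served for names and neighbours only.

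The 6 comparisons came from 1 limma 3.58.1 fit (R 4.3.3, lmFit and eBayes, 4 groups, 12 arrays) with Benjamini-Hochberg adjustment over all probe sets tested, which was tested on simulated data. Where no array of a group exceeded the ceiling, a fold, if given, was set against the larger of the ceiling and the measured signal, array by array, and is a lower bound. Members and lists were chosen with earlier results of these data known. Every member gene is named, with values on every array for those called in at least 1 comparison. *dhrs3* on every array, *hoxa2* in LE, *cdx1* in PNP and *hoxc5*, *hoxd3* and *hoxb5* in EF were added after their values were seen. For each list at most 3 called genes each way are named, those with the largest differences. For a list, a gene was read from its probe set of highest mean. Alternatives were a replicate block, 2 groups only, the methods' t-test, a variance trend, quantile normalization, median centring, a filter on dim probe sets, a fold of at least 2, averaging the probe sets of a gene, each array left out and, chosen after seeing the data, PNP and LE replicate 3 left out together. Sequences of members and promoters are not analysed here. The number of arrays limits the precision. Figures used matplotlib 3.10.9.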

Additional observations from a re-analysis of the deposited data

Results flagged for a closer look

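Of 4 genes, the differences of 2 regions from whole embryos had opposite signs and both passed the test. They were picked for this, so the differences between the regions are a description with no test. The first *aldh1a2* probe set had a difference from whole embryos of -2.72 in EF and -1.37 in PNP against 2.21 in LE, which makes EF minus LE -4.94 and PNP minus LE -3.58. The *cyp26c1* differences were 1.11 for EF, -4.13 for PNP and -3.65 for LE, so that EF minus PNP was 5.24 and EF minus LE 4.76. For *rarg* it was 0.74 in PNP and -1.10 in LE, and PNP minus LE was 1.84. For rdh10.L it was -1.22 in EF and -2.60 in PNP against 0.72 in LE, with EF minus LE at -1.94 and PNP minus LE at -3.32. For 3 of the 4 genes the smaller of the opposed differences rests on a call lost with single arrays left out, among other settings. It was lost for *cyp26c1* in EF under 8 of 21 settings, for *rarg* in PNP under 7 and for rdh10.L in LE under 7. The calls of the first *aldh1a2* probe set in PNP, *cyp26c1* in LE, *rarg* in LE and rdh10.L in EF were lost under 1 setting, the methods' t-test. All of these differences share the whole embryo arrays as their reference.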

How the results depend on the processing

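Of the 36 calls of member probe sets, 18 held under all 21 settings tried and 18 were lost under at least 1, and no called difference changed sign. The methods' t-test called 1 in place of 3 for EF against whole embryos, 3 in place of 8 for PNP against whole embryos, 2 in place of 5 for LE against whole embryos and 4 in place of 7 for EF against PNP. For PNP against whole embryos the count was 4 with 2 groups only in the fit, 4 with a fold of at least 2, 4 without PNP and LE replicate 3 and 4 to 8 with each array left out in turn, the lowest without PNP replicate 3 (5 without whole embryo replicate 3). For PNP against LE a fold of at least 2 left 5 of 8. The t-test and the 2-group fit use fewer arrays for the spread, and the fold limit is stricter by construction. The counts of the lists moved too. Of the retinol genes the count against whole embryos went from 1 to 0 in EF with the probe sets of a gene averaged, from 2 to 1 (quantile normalization) or 4 (median centring) in PNP and from 0 to 2 in LE (median centring). Of the cofactors it went from 0 to 1 in EF under each of these 3 settings and from 2 to 1 in PNP after quantile normalization. Between EF and LE the cofactor count went from 2 to 1 after median centring. Between EF and PNP it went from 1 to 3 with the probe sets of a gene averaged. The retinol gene count between EF and LE went from 0 to 1 after quantile normalization. The cause was not tested.

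Replicate numbers were not taken to pair the samples in the main fit. Deviations of arrays with the same number correlated at -0.172 to 0.208 (18 pairs), and those with other numbers at -0.223 to 0.133 (36 pairs). The highest value, 0.208, was that of LE replicate 3 with PNP replicate 3. Whether some arrays of the same number shared a day or a batch cannot be told from these values. With the number as a replicate block the counts were 2, 8, 5, 7, 5 and 8 in the order of the comparisons of EF, PNP and LE with whole embryos, EF with PNP, EF with LE and PNP with LE. The call lost was *cyp26c1* in EF against whole embryos (limma adjusted p = 0.0534).

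Values near 0 changed sign. cyp26a1.L in LE against whole embryos was 0.15 after quantile normalization and 0.078 after median centring, and -0.21 to 0.11 with each array left out. In EF against whole embryos it was -0.17 to 0.15, and *dhrs3* in PNP against whole embryos was -0.15 to 0.26, with arrays left out. The cause was not tested. Levels under the ceiling have no order.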

Other observations

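Genes most like cyp26a1.L by Pearson's r over the 12 arrays were *top1.2* (0.96), *loxl1* (0.95), *nek6* (0.94), *thbs3* (0.94) and *vopp1* (0.94). Their group means were highest in PNP, as for *loxl1*, a lysyl oxidase gene, at 6.34 in PNP, 3.32 in whole embryos, 2.93 in EF and 2.80 in LE on the log2 scale. This list was added after those of *aldh1a2* and *cyp26c1*, and the probe set of *top1.2* is of a kind that can match several genes.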
